A study of Mus musculus with 6 samples.

Results

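The miR-29 family was read on 6 one-colour microarrays as 3 mature miRNAs, mmu-miR-29a, mmu-miR-29b and mmu-miR-29c, here miR-29a, miR-29b and miR-29c. They were chosen by name: array entries for mouse miRNAs whose name, without a version suffix, equals one of these, so the star-marked opposite arms are not members. The 3 members are 3 of 611 mouse miRNA entries on the array and 3 of the 84 that were bright enough to be tested. The cells were MCT, a single mouse renal tubular cell line of SJL H-2S background. The 3 control samples and the 3 samples given TGFβ at 3 ng/ml for 72 hours were all moved from 10% to 0.5% fetal calf serum before the treatment, and the labels do not name the TGFβ isoform. The labels do not state whether the 3 arrays of a group stand for separately grown cells, so every p-value refers to a spread that may be technical only. A level here is RNA in the sample, and fewer cells carrying a miRNA cannot be told apart from less of it per cell.

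miR-29 miRNAs base-pair with the mRNAs of collagens, fibrillins and elastin and lower the output of extracellular matrix. TGFβ is the main cytokine that drives matrix deposition in the kidney, and in tubular cells and fibrotic kidney it has been reported to lower miR-29 through Smad3. Loss of miR-29 is therefore often described as a step towards fibrosis, and the comparison asks what 72 hours of TGFβ did to each member in this cell line.

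The mature sequences show why the 3 are counted as one family and how little separates them on a hybridization array. They were taken from RefSeq (build GRCm38.p6), matched to the array's older names by the arm they denote, and capitals mark the seed, bases 2 to 8 from the 5′ end.
miR-29a-3p: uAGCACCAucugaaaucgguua
miR-29b-3p: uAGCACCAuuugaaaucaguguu
miR-29c-3p: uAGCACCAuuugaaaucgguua
The seed AGCACCA was identical in the 3, and among 1679 mature mouse miRNA names in the RefSeq table only these 3 carried it. Counted from the 5′ end, miR-29a and miR-29c differed by 1 substitution, C10U. miR-29a and miR-29b differed by C10U, G18A, U21G and A22U over the 22 positions they share, and miR-29b is 1 base longer at 23. miR-29b and miR-29c differed by A18G, G21U and U22A. miR-29b ends in AGUGUU, a hexamer known as a nuclear import element, and 2 of the 1679 names (0.119%) end in these letters. The probe sequences were not used here, so how far the probes of 1 member also bind another was not tested.

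The members come from 4 hairpins in 2 clusters. Mir29a lies at chr6:31062660-31062747 and Mir29b-1 at chr6:31063023-31063093, both on the minus strand and 275 bases apart. Mir29b-2 lies at chr1:195037040-195037120 and Mir29c at chr1:195037547-195037634, both on the plus strand and 426 bases apart, within the span of the lncRNA gene A330023F24Rik, while no other gene of the table spans the chromosome 6 pair. The mature miR-29b of the 2 loci has 1 and the same sequence, so the array's miR-29b signal is the sum of both clusters. All 4 positions are from the RefSeq table (GRCm38.p6), since the array headers name another build (mm9), from which no coordinate was taken.

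Each member was read by 2 probes of 10 spots each. The arrays gave 74 to 103 mouse miRNAs well above background, and signals were scaled to a common 75th percentile, which was 249.5 to 402.4 intensity units before scaling. All 3 members had a probe well above background on all 6 arrays, and no member's value lay at the floor. On control 3 miR-29c met this with 5 of 10 spots on 1 probe, and had 2 of 10 on the other. For miR-29b, 1 of the 2 probes met it on no array. Of the fixed marker lists, 0 of 5 epithelial markers (the miR-200 family), 0 of 3 kidney tubule markers (miR-192, miR-194 and miR-215), 0 of 5 mesenchymal, 0 of 6 blood and 0 of 2 endothelial markers were well above background on any array. The summed unscaled signal of the mesenchymal markers, as an example, lay between -11.7 and -8.47 intensity units in control and between -13.6 and -7.53 in TGFβ arrays. That of the tubule markers lay between -1.90 and 3.34 in control and between 0.898 and 6.83 in TGFβ arrays, so these 3 markers were not detected in a line labelled as tubular. The part of any of these cell types in the results was not tested. Control 1 stood apart from controls 2 and 3. Over the 84 tested miRNAs its median absolute log2 departure from their mean was 0.49, against 0.0578 between controls 2 and 3. The same measure was 0.21 between TGFβ 2 and control 1, 0.21 between TGFβ 2 and TGFβ 3, and 0.25 for TGFβ 1 against the mean of TGFβ 2 and 3. Control 1 was thus about as close to TGFβ 2 as TGFβ 3 was. The results that rest on control 1 are given without it too.

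With all 6 arrays no member differed between the groups by more than the spread between replicates. miR-29a was higher in TGFβ-treated cells by 0.39 on the log2 scale, a ratio of 1.31, miR-29b by 0.23 (1.17) and miR-29c by 0.13 (1.09). In the limma fit over all 84 tested miRNAs 0 of the 3 members passed an adjusted p of 0.05, against 0% of all tested miRNAs (0 of 84, with 8 at an unadjusted p under 0.05). With the replicate number as a block 1 of 84 passed, which was no member. All 3 members lay on the higher side, where 35 of 84 tested miRNAs lay, and the median over the 84 was -0.09.

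miR-29a is the member encoded next to miR-29b-1 on chromosome 6. Its scaled signal was 1311, 775 and 788 on the control arrays, in the order of their replicate numbers as in all such series here, and 1360, 1247 and 1055 on the TGFβ arrays. Controls 2 and 3 were the 2 lowest arrays, and control 1 lay among the TGFβ arrays, above TGFβ 2 and TGFβ 3, so the groups overlapped. On the log2 scale the control mean was 9.86 ± 0.43 and the TGFβ mean 10.25 ± 0.19 (SD, n = 3 each), a difference of 0.39 (SE 0.25, 95% confidence interval -0.23 to 1.00, limma adjusted p = 0.433). The interval spans ratios from 0.853 to 2.00. By p, miR-29a stood at place 34 of 84, and by signed difference at place 15 from the top.

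miR-29b is the member made by both clusters. Its scaled signal was 113.9, 68.0 and 72.4 on the control arrays, against 148.4, 62.6 and 97.1 on the TGFβ arrays. The highest and the lowest array were both TGFβ arrays, and all controls lay between them. The log2 means were 6.37 ± 0.41 and 6.59 ± 0.62 (SD, n = 3), which differed by 0.23 (SE 0.37, 95% confidence interval -0.68 to 1.13, limma adjusted p = 0.721). This is the widest interval of the family, with ratios from 0.626 to 2.19.

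miR-29c, of the chromosome 1 cluster, gave scaled signals of 36.1, 31.3 and 30.9 on the control arrays, against 46.8, 31.4 and 31.1 with TGFβ. Apart from TGFβ 1 and control 1, the other 4 arrays lay within 1 signal unit of each other. The log2 means were 5.03 ± 0.12 and 5.16 ± 0.34 (SD, n = 3), a difference of 0.13 (SE 0.21, 95% confidence interval -0.38 to 0.64, limma adjusted p = 0.721), with ratios from 0.768 to 1.55. For 12 of the 84 tested miRNAs (14.3%) the groups did not overlap, and 0 of the 3 members were among them. Without control 1 they did not overlap for 60 of 85 (70.6%), and miR-29a was the 1 member among these.

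**Figure D1:**
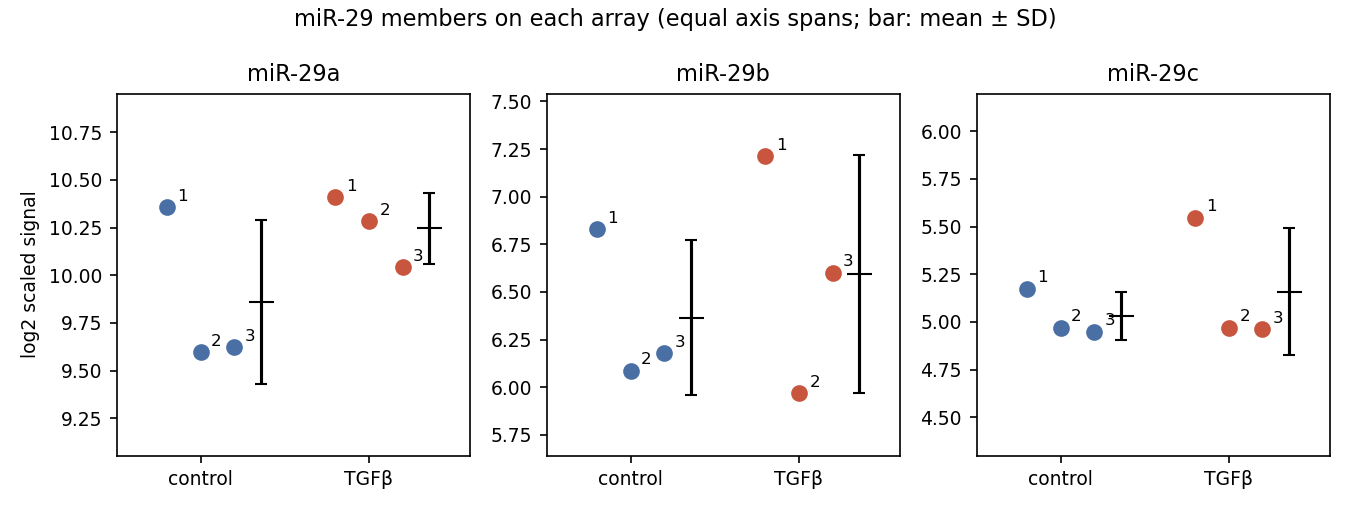
The log2 scaled signal (vertical axis) of miR-29a, miR-29b and miR-29c on each array, in panels of equal vertical span, with control arrays in blue and TGFβ arrays in red, replicate numbers beside the points and the mean ± SD at the right of each group. Control 1 lies with the TGFβ arrays for miR-29a, and TGFβ 1 is the highest array for all 3 members.

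Whether miR-29a passed depended on control 1. That array read 0.75 above the mean of controls 2 and 3 for miR-29a, 0.70 for miR-29b and 0.22 for miR-29c on the log2 scale, while controls 2 and 3 differed by -0.02, -0.09 and 0.02. Among the departures of the 84 tested miRNAs on control 1, that of miR-29a was at place 15 from the top, that of miR-29b at place 18 and that of miR-29c at place 26.

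Without control 1, miR-29a rose by 0.63 (SE 0.14, 95% confidence interval 0.27 to 0.99, limma adjusted p = 0.0256), a ratio of 1.55 with an interval from 1.21 to 1.98. In that fit 31 of 85 miRNAs passed (36.5%), 11 of them upwards (12.9%), and miR-29a was the 1 member among them, at place 21 by p. miR-29b differed by 0.46 (SE 0.38, limma adjusted p = 0.372) and miR-29c by 0.19 (SE 0.21, limma adjusted p = 0.500). With control 1 and TGFβ 1 both left out, an alternative chosen after the data were seen, miR-29a differed by 0.56 (SE 0.12, limma adjusted p = 0.0229), while miR-29b gave 0.15 (SE 0.25) and miR-29c 0.0076 (SE 0.0961), neither of which passed. In that fit 35 of 85 miRNAs passed (41.2%). Leaving out control 2, control 3 or any TGFβ array gave miR-29a between 0.26 and 0.49 without a call. These adjusted p-values do not allow for the choice of the array left out. Without control 1 the control part of the spread is that of controls 2 and 3, which lay close together.

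**Figure D2:**
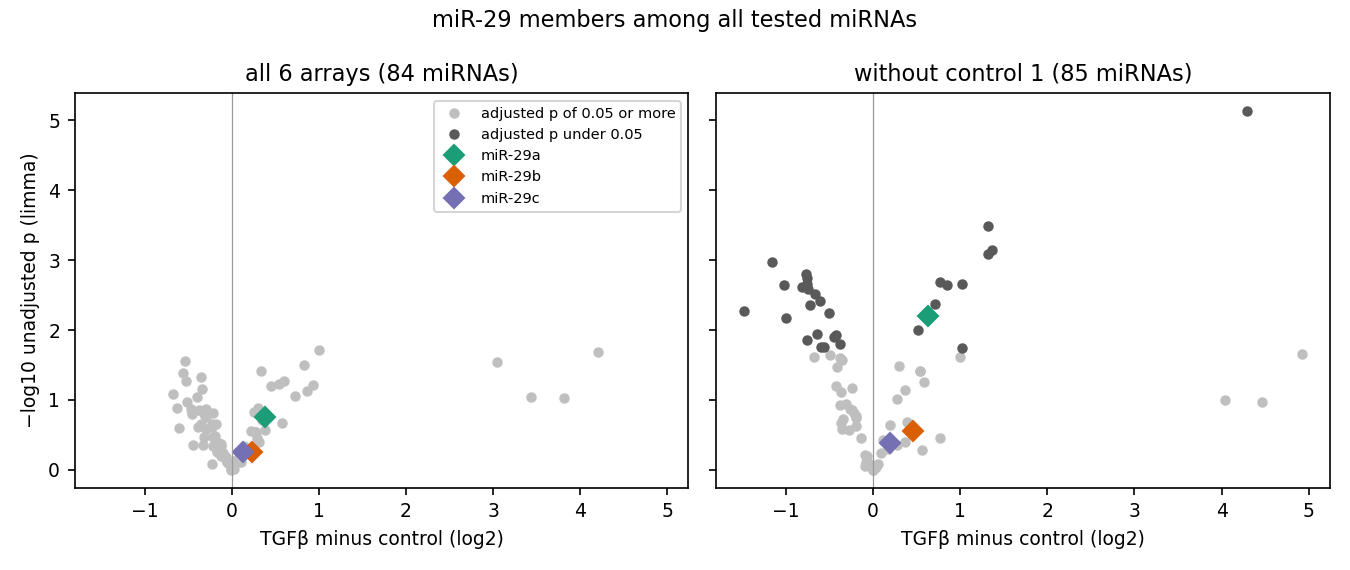
Log2 difference of TGFβ minus control (horizontal axis) against -log10 of the unadjusted limma p (vertical axis) for every tested miRNA, with all 6 arrays on the left and without control 1 on the right; dark points passed an adjusted p of 0.05. On the left 0 of 84 miRNAs passed; on the right 31 of 85 did, miR-29a (0.63) among them and miR-29b and miR-29c not.

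The sign of the other members turned when TGFβ 1 alone was left out. That array read above the mean of TGFβ 2 and 3 by 0.93 for miR-29b and by 0.58 for miR-29c, at places 6 and 15 from the top of the 84, and by 0.25 for miR-29a at place 34. Over all tested miRNAs the median of this departure was 0.13. Without TGFβ 1 the difference was -0.08 for miR-29b (SE 0.33) and -0.07 for miR-29c (SE 0.16), and it was 0.31 for miR-29a (SE 0.29). With control 1 left out as well, miR-29b gave 0.15 (SE 0.25) and miR-29c 0.0076 (SE 0.0961). TGFβ 2 and TGFβ 3 also parted for miR-29b, with TGFβ 2 lower by 0.63, which placed it at 79 of 84 for that pair of arrays.

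The probes and spots show which readings lie behind these values. Spots of an array share its labelling and hybridisation, so their spread covers only the error within an array. For miR-29a, 60 of 60 spots of each probe were well above background over the 6 arrays. Its brighter probe read 2386, 1391 and 1413 on the controls, against 2420, 2218 and 1889 with TGFβ, with a coefficient of variation between spots of 0.947% to 10.0%. Its dimmer probe gave the same order of controls, with 235.8, 159.0 and 162.1, and read 299.6, 276.0 and 221.4 with TGFβ. Control 1 read above the mean of the other controls by 0.77 (log2) on the brighter and 0.55 on the dimmer probe, so its higher reading did not rest on 1 probe. The standard error from spots was at most 0.0483 and 0.0944 on these probes. In a fit over 129 probes they differed between the groups by 0.37 (SE 0.26) and 0.53 (SE 0.22, limma adjusted p = 0.40), and with control 1 left out by 0.63 and 0.72.

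The 2 probes of miR-29b did not carry equal weight. On its brighter probe 60 of 60 spots were well above background, and on the dimmer 6 of 60, all on control 1 and TGFβ 1. The brighter probe read 207.6, 122.7 and 133.6 on the controls and 276.1, 116.9 and 179.4 on the TGFβ arrays, a difference of 0.26 (SE 0.37), which was 0.49 without control 1. TGFβ 1 was the highest and TGFβ 2 the lowest array on it. The dimmer probe was not well above background on any array by the rule used here, which asks for 0.5 of the spots. It read 20.2, 13.3 and 11.2 on the controls and 20.7, 8.34 and 14.9 on the TGFβ arrays, and no difference or order is read from it alone. It is still averaged into the miR-29b value. Averaging the log2 signals of the 2 probes, which gives it equal weight, moved miR-29b from 0.23 to 0.09 (SE 0.38).

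For miR-29c 48 of 60 spots of one probe and 41 of 60 of the other were well above background, with the fewest on control 3 (5 and 2 of 10 spots) and 10 of 10 on both probes of TGFβ 1. The probes differed between the groups by 0.09 (SE 0.21) and 0.17 (SE 0.23), and by 0.11 and 0.31 without control 1. On control 1 they disagreed: it stood 0.04 above the other controls on the brighter probe and 0.42 above on the dimmer. The largest standard error from spots of 1 probe on 1 array was 0.13 on the brighter and 0.19 on the dimmer probe (log2).

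**Figure D3:**
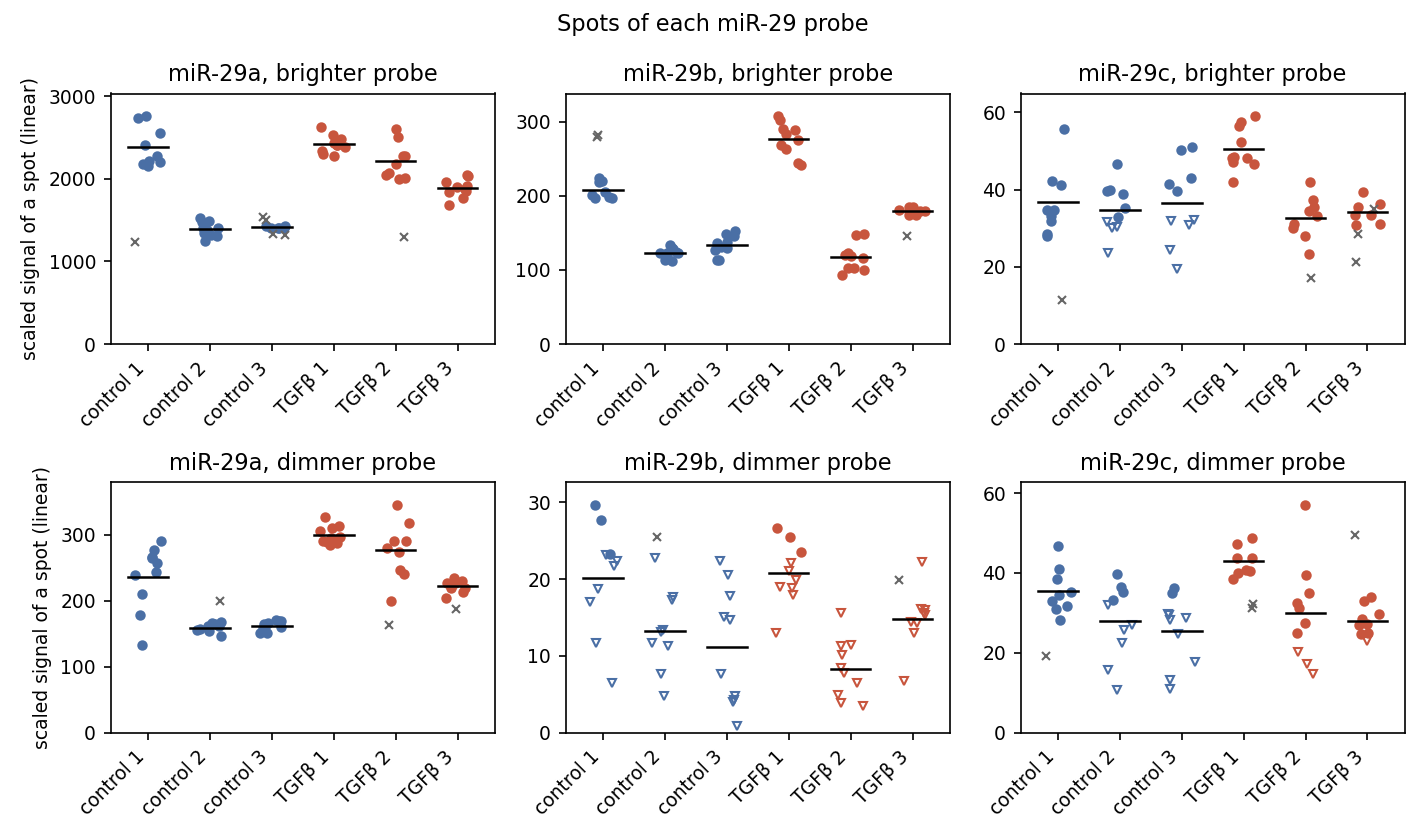
Scaled signal of every spot (vertical axis, linear and from 0) of the 6 probes on each array (horizontal axis), control in blue and TGFβ in red; filled circles are spots well above background, open triangles spots that were not, grey crosses spots marked as outliers and left out, and lines the mean of the spots used. On both miR-29a probes the means on controls 2 and 3 lie below those on the TGFβ arrays, while the dimmer miR-29b probe has 6 of 60 spots well above background.

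The members were then compared with each other through the log2 difference of 2 members on the same array, which is free of scaling between arrays. Levels of different probes are not comparable, so each value is given relative to its control mean. For miR-29a minus miR-29b the 3 controls agreed within 0.0813 although both miRNAs were raised on control 1. The TGFβ arrays spread over 1.12, at -0.30, 0.82 and -0.05 on TGFβ 1 to 3. For miR-29a minus miR-29c the controls read 0.35, -0.20 and -0.16 and the TGFβ arrays 0.0352, 0.49 and 0.26. For miR-29b minus miR-29c they read 0.32, -0.22 and -0.11 against 0.33, -0.34 and 0.31.

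The responses of the members to TGFβ were not shown to differ in any of the 3 pairs. miR-29a exceeded miR-29b in its response by 0.16 (SE 0.34, two-sided exact permutation p = 1, adjusted p = 1), miR-29a exceeded miR-29c by 0.26 (SE 0.22, two-sided exact permutation p = 0.3, adjusted p = 0.9) and miR-29b exceeded miR-29c by 0.10 (SE 0.27, two-sided exact permutation p = 0.9, adjusted p = 1). With 3 arrays against 3 the smallest p this test can give is 0.1, so unequal responses could not have been called. Without control 1 the 3 differences of responses were 0.17, 0.44 and 0.26 in the same order. That miR-29a passed without control 1 and the others did not is no evidence of a difference between them.

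All arrays lay on 1 slide, where 2 columns held 1 control and 1 TGFβ array each. In the first column TGFβ 2 against control 1 gave -0.07 for miR-29a, -0.86 for miR-29b and -0.20 for miR-29c (log2), where the median of all tested miRNAs was 0.03. In the second, TGFβ 3 against control 2 gave 0.45, 0.51 and -0.0091, where that median was -0.10. The 2 columns thus gave opposite signs for miR-29a and miR-29b, and miR-29b in the first column was at place 83 of 84. Blocking on the column averages these 2 values of each member, since control 3 and TGFβ 1 share a column with no other array. It gave differences of 0.19 (SE 0.37), -0.17 (SE 0.43) and -0.11 (SE 0.36) for miR-29a, miR-29b and miR-29c, and none was called. Blocking on the row, where TGFβ 1 is the single TGFβ array beside controls, gave 0.55 (SE 0.37), 0.85 (SE 0.41) and 0.52 (SE 0.20), none of which passed either.

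**Figure D4:**
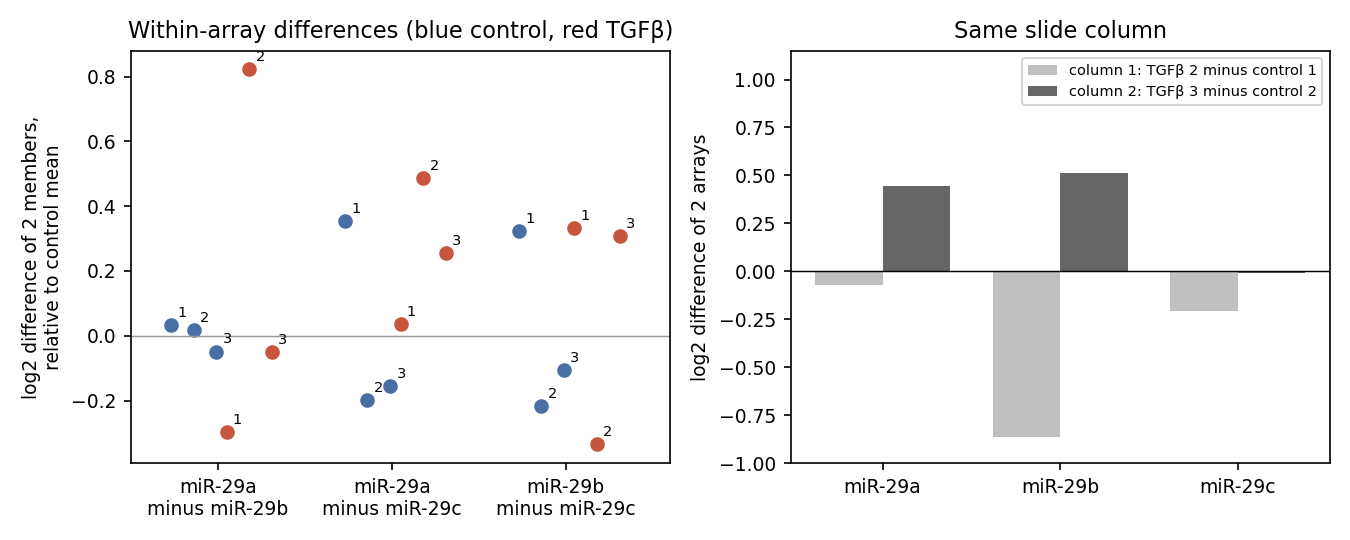
Left, the log2 difference of 2 members on the same array relative to its control mean (vertical axis) for the 3 pairs of members, with replicate numbers beside the points. Right, the log2 difference of the TGFβ and the control array in the same slide column (vertical axis, bars from 0). The controls of miR-29a minus miR-29b lie within 0.0813 and the TGFβ arrays over 1.12, and miR-29a and miR-29b have opposite signs in the 2 columns.

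Of the opposite arms of the hairpins, strands that are usually degraded, 3 were on the array, and by the spot rule used here none of these 3 was well above background on any of the 6 arrays. Feature Extraction's own call, a different rule, listed miR-29b-1* as detected on 2 arrays, TGFβ 2 and TGFβ 3. Their sequences, with bases 2 to 8 in capitals, show that they share no seed with the members.
miR-29a-5p: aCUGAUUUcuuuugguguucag
miR-29b-1-5p: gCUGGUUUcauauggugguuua
miR-29c-5p: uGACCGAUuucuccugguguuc
For miR-29a* 2 of 120 spots over the 6 arrays were well above background, for miR-29b-1* 1 of 120 and for miR-29c* 0 of 120. The mean unscaled signal of miR-29a* lay between 2.20 and 4.70 intensity units in control and 3.27 and 7.60 in TGFβ arrays. For miR-29b-1*, the arm that marks the chromosome 6 copy of miR-29b, it lay between 3.30 and 6.00 in control and 5.63 and 8.23 in TGFβ arrays. No ratio is given for values that were not well above background in either group, so the arms do not tell the 2 sources of miR-29b apart.

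By the correlation of log2 scaled signals over the 6 arrays, miR-29a was most like miR-34b-5p (Pearson r 0.97, Spearman rho 0.89), miR-34a (0.96 and 0.94) and miR-20a (0.95 and 0.83) among 69 other miRNAs well above background on all arrays, over which its median r was -0.38. These values were 0.97, 0.96 and 0.94 without control 1 and 0.96, 0.96 and 0.94 without TGFβ 1. Each of the 3 was also raised on control 1, by 1.37, 1.36 and 0.999. miR-34a and miR-34b-5p are known as transcriptional targets of p53, and miR-20a belongs to the miR-17 family. miR-29b was most like miR-106b (r 0.92, rho 0.94), miR-18a (0.90 and 0.77) and miR-29c (0.87 and 0.49). Its r with them was 0.92, 0.93 and 0.88 without control 1, and 0.82, 0.88 and 0.73 without TGFβ 1.

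miR-29c was most like miR-182 (r 0.93, rho 0.71), miR-1224 (0.92 and 0.6) and miR-19b (0.87 and 0.6). Without TGFβ 1 the r values were -0.02, 0.36 and 0.52, while without control 1 they were 0.99, 0.95 and 0.87. All 3 thus fell when TGFβ 1 was left out, the first of them the most. Between members r was 0.63 for miR-29a with miR-29b and 0.64 for miR-29a with miR-29c, which put miR-29c at place 14 and miR-29b at place 15 of the 69 for likeness to miR-29a. Without TGFβ 1 these r values were 0.46 and 0.62. The points share a slide and a scaling, so these correlations only describe the 6 arrays.

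Other miRNAs linked to matrix and TGFβ give the surroundings of these values. A list of 28 miRNAs reported to restrain matrix genes or TGFβ signalling (the let-7, miR-30, miR-26, miR-101, miR-133 and miR-200 families with miR-98, miR-18a and miR-19) had 15 tested members, of which 2 were higher and 13 lower, with a median of -0.21 and 0 passing in limma, against 35 higher and 49 lower and a median of -0.09 over all 84. Without control 1, 6 of 16 passed, all of them lower. In that fit 31 of 85 tested miRNAs passed (36.5%), 20 of them lower. With all 6 arrays the 2 list members of smallest p were miR-98, a let-7 relative, with -0.53 (SE 0.18), and miR-30a with -0.68 (SE 0.33). A list of 16 miRNAs described elsewhere as raised by TGFβ or in fibrosis (among them miR-21, miR-192, miR-155 and miR-214) had 4 tested members, all 4 higher, with a median of 0.63 and 0 passing. Of these miR-34c differed by 0.93 (SE 0.40) and miR-34a by 0.87 (SE 0.40), and without control 1, 2 of 4 passed upwards, where 12.9% of all tested miRNAs did. The 3 miR-29 differences of 0.39, 0.23 and 0.13 lay between the medians of the 2 lists, as did the median of -0.09 over all 84. Any difference between the family and either list was not tested.

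The sign of miR-29a was kept under each of 25 alternatives, with values between 0.19 and 0.73. That of miR-29b turned in 2 and that of miR-29c in 3. Alternatives that change only the filter, the floor, limma's variance estimate or the replicate block left each difference unchanged (0.39 for miR-29a). These could not turn a sign.

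**Figure D5:**
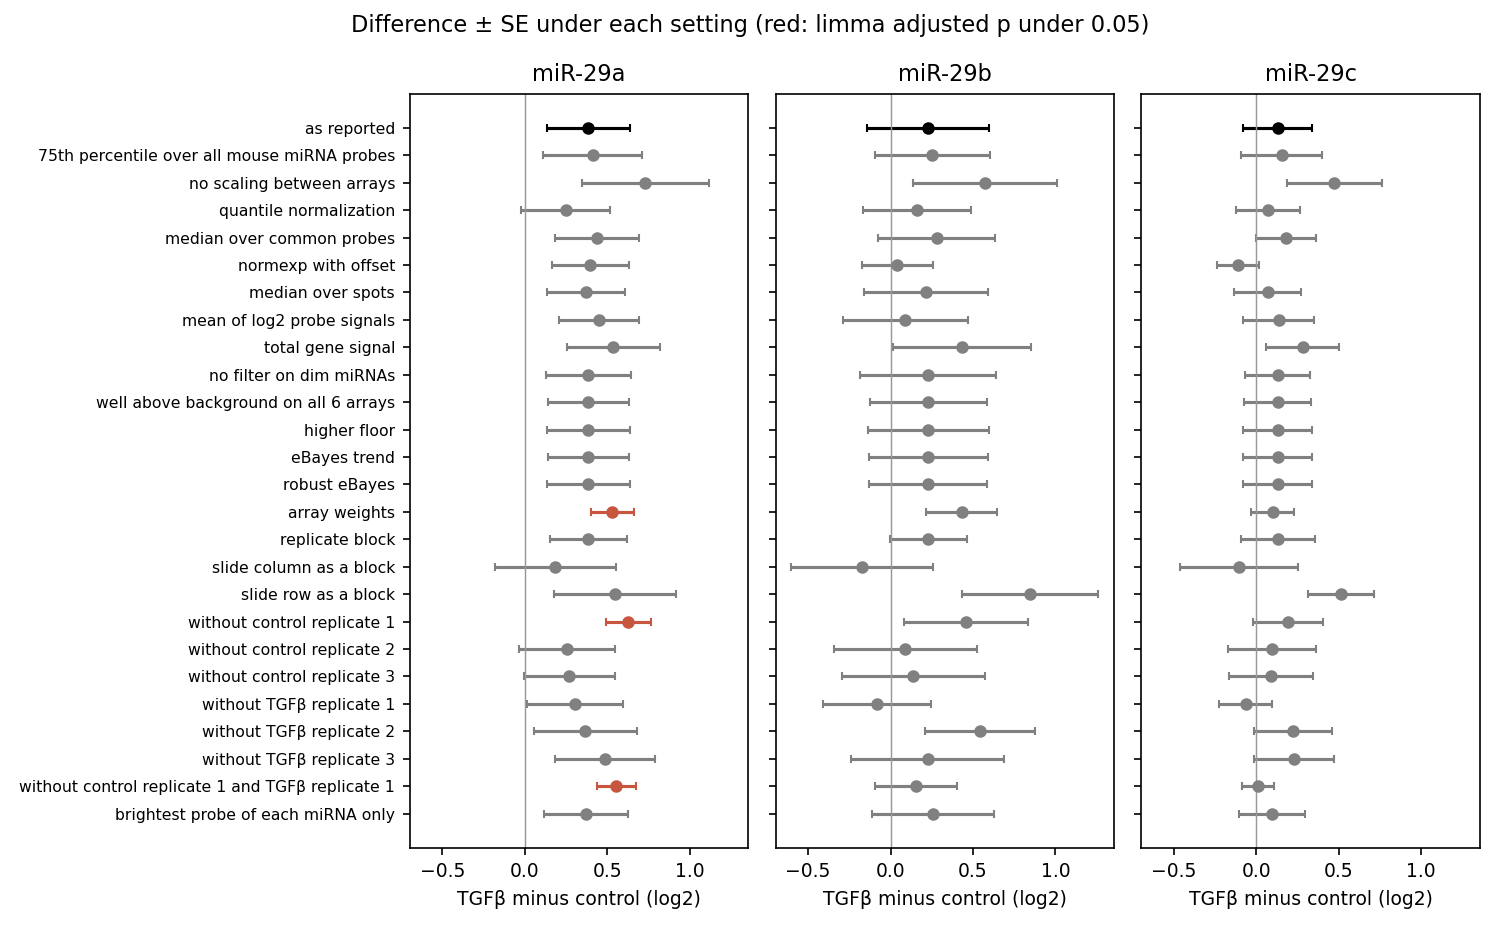
Log2 difference of TGFβ minus control ± SE (horizontal axis) for miR-29a, miR-29b and miR-29c under each processing setting (rows), with the reported setting in black at the top and settings with a limma adjusted p under 0.05 in red. miR-29a stays above 0 in each of the settings shown and is red in 3 of them, while miR-29b and miR-29c cross 0. In those 3 settings 31 of 85 (without control 1), 35 of 85 (without control 1 and TGFβ 1) and 45 of 84 (array weights) tested miRNAs passed.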

How the data were processed

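Total RNA (100 ng) of 6 MCT samples was labelled with Cy3 and hybridised to one-colour Agilent miRNA arrays of 1 slide, per the labels' protocols. The authors deposited background-subtracted spot intensity from Feature Extraction, unscaled, per the file headers (version 10.7.3.1; the submitters' processing notes give 10.1.1). The series value table held the same intensities (largest difference 0). Flags for outlier, saturated and above-background spots came with them, and 0 spots were saturated.

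Spots not marked as outliers were averaged per probe and probes per miRNA. Scaling used each array's 75th percentile over 105 probes (those above background on each of the 6 arrays), and values were floored at 1 and log2-transformed. At least 0.5 of a probe's spots had to exceed background for the probe to do so. A miRNA did so where any of its probes did, and miRNAs doing so on all 3 arrays of either group entered the test. The test was limma 3.58.1 (R 4.3.3, two-sided, Benjamini-Hochberg over all tested miRNAs, threshold 0.05), checked on simulated data. The simulated errors were independent with no outlying array, so the check does not cover an array such as control 1. Pairs of members were compared by exact permutation over arrays (Python 3.11.15). Where arrays were left out, the percentile was taken anew. The titles' replicate numbers were checked as pairs: deviations from the group means of same-numbered arrays correlated at 0.38, 0.37 and 0.52 over the 84 miRNAs, all above 0.1, while control 2 with TGFβ 3 also gave 0.38 and the other differently numbered pairs -0.48 to 0.09, so the block fit was run as a paired alternative. Depth has no count on arrays, and their number limits the precision. The members, lists and naming rule (the members, their opposite arms, the 2 list members of smallest p and the 3 miRNAs most like each member) were chosen with earlier results of these data known. Normexp (offset 50) used spot medians.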

Additional observations from a re-analysis of the deposited data

Results flagged for a closer look

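Feature Extraction's own call, which the comparisons did not use, listed miR-29b-1* as detected on TGFβ 2 and TGFβ 3, with a total gene signal of 6.06 and 5.49, and on 0 of 3 control arrays. On TGFβ 1 it was not detected. The brightest of its 4 probes read 15.6, 9.5 and 8.23 intensity units on the control arrays, in the order of their numbers, against 15.5, 18.3 and 16.6 with TGFβ, so control 1 and TGFβ 1, where it was not called, were close to TGFβ 3, where it was. Over the 6 arrays 1 of the spots was well above background, on TGFβ 3. The cause was not tested.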

How the results depend on the processing

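Of 25 alternatives, some of which could not change the difference, miR-29a kept its direction in all and passed in limma in 3. These were without control 1, without control 1 and TGFβ 1 (0.56), and with array weights (0.53, limma adjusted p = 0.0152). In the same order 31 of 85, 35 of 85 and 45 of 84 tested miRNAs passed. The array weights were 0.144 for control 1 against 3.71 and 3.08 for controls 2 and 3. miR-29b turned with the slide column as a block (-0.17) and without TGFβ 1 (-0.0802), and TGFβ 1 enters neither of these fits. miR-29c turned with that block (-0.11), without TGFβ 1 (-0.0658) and with normexp (-0.11). Normexp starts from the local background, with medians of 53 to 56 units at spots of undetected miRNAs, while those spots read 134 to 137.5. The unscaled signal of miR-29c was 23.6 to 52.3 units. Leaving out 1 array gave 0.26 to 0.63 for miR-29a, -0.0802 to 0.54 for miR-29b and -0.0658 to 0.23 for miR-29c. Over all alternatives the adjusted p lay between 0.0152 and 0.976, 0.130 and 1, and 0.317 and 1.

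The number of miRNAs passing went from 0 to 45 with array weights, 35 without control 1 and TGFβ 1, 3 with the slide row as a block and 1 with the replicate block, and lay between 0 and 31 with 1 array left out. The alternative without control 1 and TGFβ 1 and the one with the brightest probe only were chosen after seeing the data. The paired fit changed no other call: with the replicate block miR-29b differed by 0.23 with an SE of 0.23 in place of 0.37. Without scaling between arrays the median of all tested miRNAs moved by 0.35, and the members' differences (0.73, 0.57 and 0.47) minus that median stayed at 0.48, 0.32 and 0.22.

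Of the differences between members, miR-29a minus miR-29b turned with the slide row as a block (-0.30) and ranged from -0.17 to 0.39 with 1 array left out. miR-29b minus miR-29c turned with log2 probe means (-0.0444) and the column block (-0.0672) and ranged from -0.0145 to 0.32. miR-29a minus miR-29c kept its sign. The column block leaves out control 3 and TGFβ 1, and the row block sets TGFβ 1 alone against the 3 controls. Log2 probe means give the dimmer miR-29b probe, well above background on no array, the same weight as the brighter. Why these arrays and probes read differently was not tested.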
